A study of Homo sapiens with 8 samples.

Results

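The genes described here are 53 interferon-stimulated genes and regulators of the interferon response, taken by symbol from a list of names. All 53 were found among the 58302 genes of the count table, and all 53 passed the filter on low counts, which left 18973 genes. The data came from tumours grown in mice as xenografts of T24, a long-established cell line from a human bladder carcinoma. One group of 4 libraries carried enforced expression of DDR1, a receptor tyrosine kinase activated by collagen, and the other group of 4 was labelled control. Both groups share the T24 line and the xenograft setting, and the labels name no vector, clone, mouse strain, mouse age or time of collection. The titles give a shared prefix to DDR1 replicates 2, 3 and 4, and another to control replicates 3 and 4. They name lane 7 for control replicates 1 and 2, lane 8 for all 4 DDR1 libraries and no lane for control replicates 3 and 4, so lane and group cannot be told apart. Whether each library is a separate animal is not stated, so the p-values rest on spread among libraries that could be partly technical.

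Interferons are secreted cytokines that put cells into an antiviral state. Type I interferons bind a receptor made of IFNAR1 and IFNAR2, and the receptor-bound kinases JAK1 and TYK2 then activate STAT proteins. STAT2 joins IRF9 in a complex that binds a DNA element named the interferon-stimulated response element (ISRE), near the start of many target genes. The targets encode proteins that block viral RNA (the IFIT and OAS families), guanosine triphosphatases (MX1, MX2), RNA sensors (DDX58, IFIH1) and feedback regulators such as USP18. Many tumour cell lines hold some of these genes on without added interferon.

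The libraries held 13716286 to 32271031 expected counts each. The targeted gene DDR1 (chromosome 6, 30876421 to 30900156, GRCh38) stood at 138, 110, 210 and 149 CPM (library-scaled counts) in control replicates 1 to 4. In the DDR1 group it stood at 159, 343, 427 and 810 CPM. Thus the library labelled DDR1 replicate 1 lay inside the control range, against its label, and is named by that label throughout. DDR1 had a log2 fold change (DDR1 minus control) of 1.52, standard error 0.43 (edgeR quasi-likelihood, unadjusted p = 0.00612, adjusted p = 0.9998; exact two-sided permutation p = 0.0571). Without the 2 controls of lane 7 it was 1.31 with an unadjusted edgeR p of 0.0653. Over the 18973 genes, edgeR called 0 (0%) at an adjusted p under 0.05, and 4.17% had an unadjusted p under 0.05. All 8 markers listed for T24, keratins KRT7, KRT8, KRT18 and KRT19 among them, passed the filter, with a summed level of 4320 to 5470 CPM in controls and 3890 to 5680 CPM in the DDR1 group. Of 14 leukocyte markers 11 lay under the filter, PTPRC (10 counts over all libraries), CD3D and LYZ included, and CD68 and CD14 held most of the summed 16.7 to 39.4 CPM in controls and 23.4 to 49.3 CPM in the DDR1 group.

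Since the ISRE is the shared element through which most of these genes are known to respond, its core was looked for in RefSeq promoters (GRCh38.p14, 250 bases before to 50 after the gene start, first entry per gene). The table held 42 of the 53 genes. The ISRE core (TTTC, any 2 bases, then TTTC), read on both strands, was present in 22 of the 42 promoters (52.4%) and in 3.65% of 27305 promoters of the same length. The element TTCNNNGAA, named GAS and bound by STAT dimers, is its own reverse complement and was present in 9 of 42 (21.4%) and in 7.88% of all. The 2 motifs can overlap, and a match is a description of letters only. Stretches before the gene start are shown for 8 genes whose values are given below, and for PSMB10, which has a core and whose level in DDR1 replicate 4 was at the mean of the other DDR1 libraries. All run 5′ to 3′ on the strand of the gene, with each ISRE core of the stretch in capitals. HERC5, IFIH1, IFI6, IFI44L and OAS3 had 3, 3, 3, 2 and 2 cores before the start, and their stretches hold only those nearest to it. They lie at chr1:1013359-1013424 (ISG15, plus strand), chr10:89392482-89392554 (IFIT1, plus), chr10:89327816-89327909 (IFIT3, plus), chr12:112938437-112938473 (OAS3, plus), chr1:27672251-27672310 (IFI6, minus), chr1:78620350-78620409 (IFI44L, plus), chr4:88457020-88457079 (HERC5, plus), chr2:162318685-162318730 (IFIH1, minus) and chr16:67936851-67936896 (PSMB10, minus).
ISG15: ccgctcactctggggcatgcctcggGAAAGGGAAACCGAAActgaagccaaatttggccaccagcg
IFIT1: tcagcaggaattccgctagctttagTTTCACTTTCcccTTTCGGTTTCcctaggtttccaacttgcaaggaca
IFIT3: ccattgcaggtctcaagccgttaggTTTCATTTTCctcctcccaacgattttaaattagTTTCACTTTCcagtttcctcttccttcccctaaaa
OAS3: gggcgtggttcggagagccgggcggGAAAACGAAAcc
IFI6: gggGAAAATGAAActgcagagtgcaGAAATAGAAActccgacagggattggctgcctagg
IFI44L: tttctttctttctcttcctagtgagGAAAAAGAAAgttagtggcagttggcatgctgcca
HERC5: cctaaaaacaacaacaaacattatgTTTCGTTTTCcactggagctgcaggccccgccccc
IFIH1: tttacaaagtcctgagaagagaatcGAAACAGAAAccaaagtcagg
PSMB10: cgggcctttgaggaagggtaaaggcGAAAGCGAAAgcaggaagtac

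Most of these genes had lower fitted levels in the DDR1 group than in controls, but no single gene passed the test over all genes. The size of the difference depended on which libraries were included. The log2 fold change (DDR1 minus control) was below 0 for 51 of 53 genes, where 50.5% of all tested genes lay below 0, and its median was -0.56 against 0.00 over all tested genes. With size factors of another kind (RLE) the count was 49, since IRF9 and IFNGR1 lay at 0.00. Of the 53, 0 passed at an adjusted p under 0.05 with edgeR, DESeq2, limma-voom or limma-trend. With edgeR, 4 of 53 were lower at an unadjusted p under 0.05 (OASL, IRF7, HERC5 and DTX3L) and 0 were higher, where 2.24% of all tested genes were lower and 1.93% higher at that p. Leaving out 1 library moved this count of 4 to 1 (control replicate 3), 2 (control replicate 4), 8 (control replicate 2), 7 (DDR1 replicate 3) or 12 (the library labelled DDR1 replicate 1). Without DDR1 replicate 4 the genes lower at this p were OASL, HERC5 and PARP9. DTX3L and IRF7 were then past the threshold (edgeR unadjusted p = 0.0506 and 0.0812). Leaving out both controls with no lane gave 0, and summing libraries of 1 title prefix gave 2. The 4 DDR1 libraries all lay below the 4 controls for 4 of 53 genes (OASL, HERC5, PARP9 and DTX3L), and above them for 0, where 1.13% of all tested genes were lower and 1.27% higher without overlap.

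**Figure D1:**
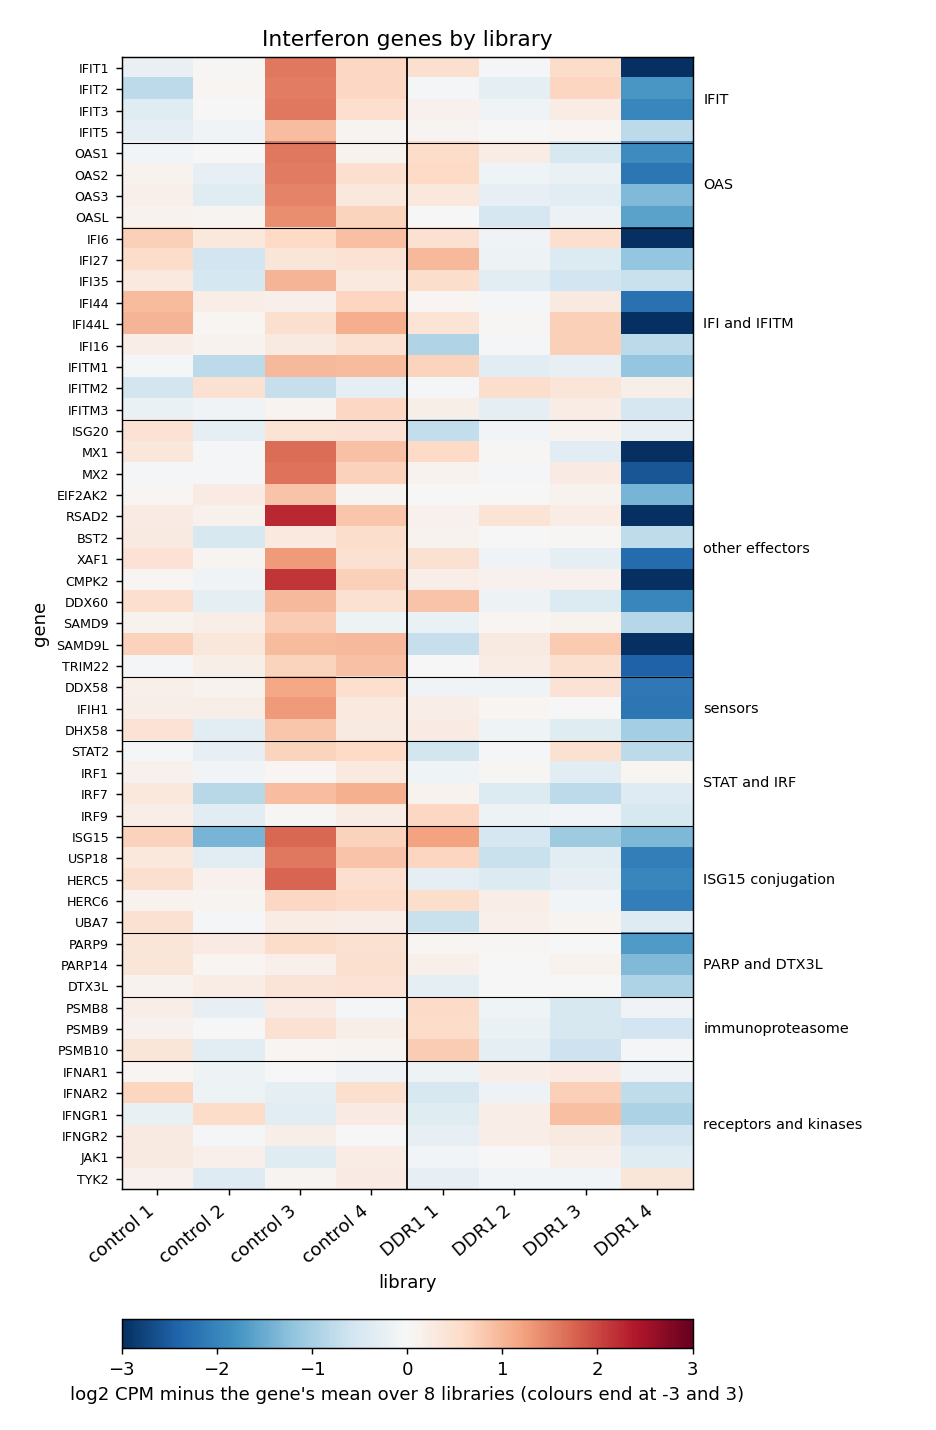
Log2 CPM of each of the 53 genes (rows, by subgroup) in each of the 8 libraries (columns), shown as the difference from the mean of that gene over 8 libraries, with red above and blue below it. DDR1 replicate 4 is the lowest library for 41 of 53 genes and control replicate 3 the highest for 27.

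DDR1 replicate 4 stood apart from all other libraries. It was the lowest of 8 libraries for 41 of 53 genes (77.4%), where it was the lowest for 17% of all tested genes. Measured against the mean log2 CPM of the other 3 DDR1 libraries, it was lower for 50 of 53 genes with a median difference of -1.24, while over all tested genes it was lower for 49.1% with a median of 0.01. This was also the library with the most DDR1, at 810 CPM, and its mean log2 CPM over the 53 genes was 4.88. DDR1 replicates 1 to 3, at 159, 343 and 427 CPM of DDR1, had means of 6.45, 6.25 and 6.34. Among controls the most DDR1 (210 CPM) and the highest mean (7.08) were both in control replicate 3. A relation to the DDR1 level was not tested. Control replicate 3 stood apart in the other direction. It was the highest library for 27 of 53 genes (50.9%), against 19% of all tested genes, and control replicate 4 was the highest for 10. The median log2 fold change of the 53 genes was -0.31 without DDR1 replicate 4, with 45 of 53 below 0, and -0.35 without control replicate 3, with 50 below 0. It was -0.18 with 43 below 0 when both controls with no lane were left out, and -0.75 with 49 below 0 when both controls of lane 7 were left out. Without the library labelled DDR1 replicate 1 it was -0.76.

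**Figure D2:**
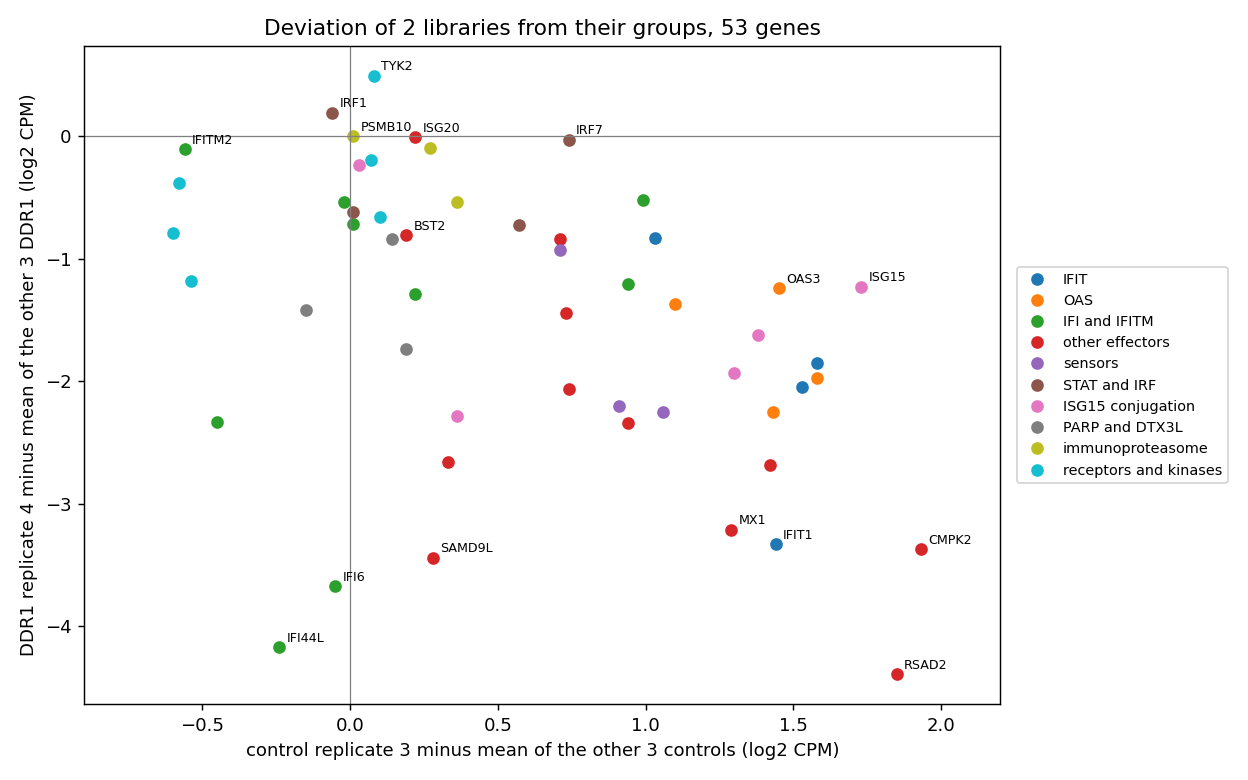
Each point is 1 of the 53 genes, coloured by subgroup. The horizontal axis is log2 CPM in control replicate 3 minus the mean of the other 3 controls, and the vertical axis is log2 CPM in DDR1 replicate 4 minus the mean of the other 3 DDR1 libraries. RSAD2 lies lowest at -4.39, and IFI6 and IFI44L lie low on the vertical axis but near 0 on the horizontal one.

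The IFIT genes encode proteins that bind viral RNA with foreign ends, and the 4 members sit side by side on chromosome 10. IFIT1 (89392546 to 89406486, plus strand) held 152, 184, 535 and 273 CPM in control replicates 1 to 4 and 247, 174, 262 and 22.3 CPM in DDR1 replicates 1 to 4. DDR1 replicates 1 to 3 lay inside the control range, and DDR1 replicate 4 lay below every control, 10.2-fold under the mean of the other 3 DDR1 libraries. IFIT3 held 89.6, 114, 344 and 165 CPM in controls and 127, 108, 135 and 29.7 CPM in the DDR1 group. IFIT2 showed the same order at its ends, with 261 CPM in control replicate 3 and 26.6 CPM in DDR1 replicate 4. IFIT5 varied least of the 4, from 35.2 CPM in DDR1 replicate 4 to 115 CPM in control replicate 3. The log2 fold changes of IFIT1, IFIT2, IFIT3 and IFIT5 were -0.70, -0.73, -0.83 and -0.36, with standard errors of 0.65, 0.55, 0.52 and 0.30. None was lower at an unadjusted p under 0.05, and with both no-lane controls left out IFIT1 stood at 0.07, IFIT2 at 0.17 and IFIT5 at 0.08. The gene models of IFIT1, IFIT2 and IFIT3 overlap LIPA on the other strand, and IFIT2 also overlaps another gene on its own strand, so their counts are less certain.

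The OAS family makes a second messenger that switches on RNA decay, and OASL is a related protein that binds RNA without making it. OAS1, OAS2 and OAS3 lie together on chromosome 12, and OASL lies elsewhere on it (121019111 to 121039242, minus strand). OAS3 held 312, 218, 785 and 352 CPM in controls and 352, 235, 221 and 112 CPM in the DDR1 group. OAS2 ran from 39.9 CPM in DDR1 replicate 4 to 524 CPM in control replicate 3, and OAS1 from 17 to 187 CPM in the same 2 libraries. OASL held 26.9, 26.3, 65.4 and 39.5 CPM in controls and 25.2, 17.4, 22 and 8.2 CPM in the DDR1 group. Here the groups did not overlap, though the library labelled DDR1 replicate 1 and control replicate 2 differed by about 1 CPM. OASL had a log2 fold change of -1.12, standard error 0.39 (edgeR unadjusted p = 0.0178, adjusted p = 0.9998), lower than every control in 4 of 4 DDR1 libraries. It was -0.86 without DDR1 replicate 4 and -0.54 with both no-lane controls left out. OAS1, OAS2 and OAS3 had -0.73, -0.84 and -0.86 with standard errors of 0.53, 0.54 and 0.44.

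The 9 IFI and IFITM genes did not share 1 order of libraries. IFI35, which binds other interferon-induced proteins, held 35.5, 20.3, 58.7 and 35.8 CPM in controls and 41.7, 23, 19.5 and 18.5 CPM in the DDR1 group, so that control replicate 3 was highest and DDR1 replicate 4 lowest, as for the IFIT genes. IFI6, IFI44L and IFI44 had another order, and IFI6 and IFI44L were chosen after their values were seen. IFI6, a small mitochondrial and endoplasmic reticulum protein that blocks virus replication (chromosome 1, 27666061 to 27672218, minus strand), held 427, 325, 393 and 485 CPM in controls and 359, 242, 372 and 25 CPM in the DDR1 group. Its 7 other libraries stayed within 242 to 485 CPM, and DDR1 replicate 4 lay 13-fold under the mean of the other DDR1 libraries. IFI44L held 576, 298, 399 and 607 CPM in controls and 382, 291, 468 and 20.6 CPM in the DDR1 group. Its neighbour IFI44 held 235, 140, 134 and 188 CPM and then 127, 119, 145 and 25.7 CPM. In these 3 genes control replicate 3 was not raised, at 0.955, 0.808 and 0.714 times the mean of the other controls, whereas it was 2.64 times that mean for IFIT1. Their log2 fold changes were -0.71, -0.69 and -0.74 with standard errors of 0.61, 0.68 and 0.45, and without DDR1 replicate 4 they were -0.32, -0.29 and -0.41. IFI27 was highest in the library labelled DDR1 replicate 1 (300 CPM) and lowest in DDR1 replicate 4 (68.2 CPM), and its log2 fold change of -0.23 became 0.03 without the latter. IFI16, a DNA sensor, was lowest at 71.5 CPM in the library labelled DDR1 replicate 1 and highest at 219 CPM in DDR1 replicate 3.

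The IFITM genes encode small membrane proteins that stop viruses at the membrane. IFITM1 ran from 84.8 CPM in DDR1 replicate 4 to 374 CPM in control replicate 3, and IFITM3 from 276 CPM in DDR1 replicate 4 to 596 CPM in control replicate 4. IFITM2 went the other way and held 51.7, 104, 47.1 and 62.6 CPM in controls and 74.2, 110, 97.3 and 86.1 CPM in the DDR1 group. The log2 fold change, 0.47 (standard error 0.26), was past no threshold (edgeR unadjusted p = 0.0996, adjusted p = 0.9998). IFITM1 and IFITM2 have overlapping gene models on 1 strand of chromosome 11 (313506 to 315272 and 307631 to 315272) and the 3 genes are close copies, so reads may be split between them and their single values are uncertain.

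**Figure D3:**
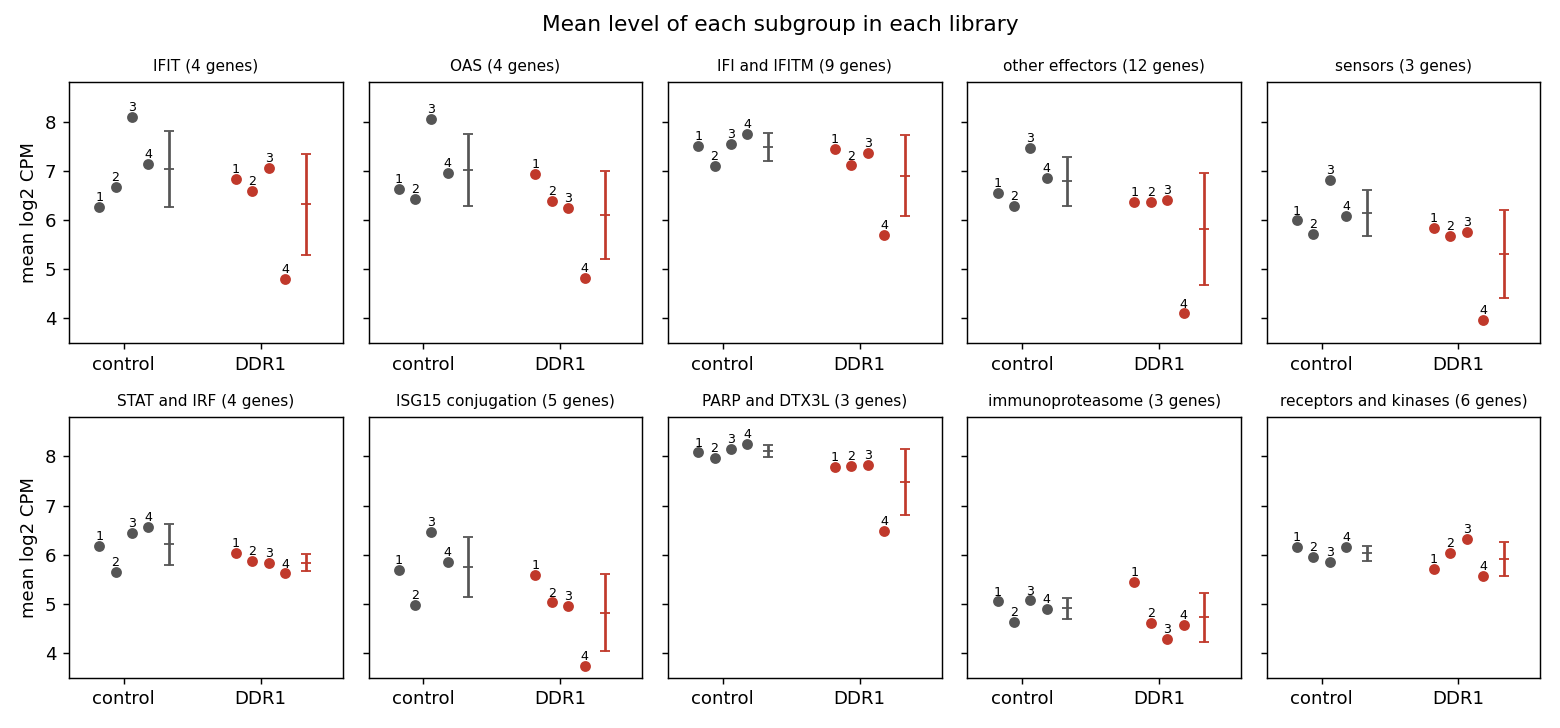
Mean log2 CPM over the members of each subgroup in each library, with the replicate number above each point and the mean ± SD over 4 libraries beside them. DDR1 replicate 4 lies lowest in every panel but that of the immunoproteasome, where DDR1 replicate 3 lies lowest, and the libraries spread least for receptors and kinases by their median SD of 0.27.

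Among other antiviral effectors, RSAD2 (viperin, which makes a chain-terminating nucleotide; chromosome 2, 6865806 to 6898239, plus strand) had the widest range of the 53 genes, 88.6-fold between its highest and lowest library. It held 35.1, 32.2, 142 and 53.1 CPM in controls and 32.2, 39.4, 34.4 and 1.6 CPM in the DDR1 group. CMPK2, a nucleotide kinase whose gene model overlaps RSAD2 on the other strand, held 25, 22.1, 106 and 39.5 CPM and then 27.4, 26.2, 26.1 and 2.5 CPM. For both genes control replicates 1 and 2 and DDR1 replicates 1 to 3 lay between 22.1 and 39.4 CPM, with control replicates 3 and 4 above them and DDR1 replicate 4 below. The log2 fold changes were -1.28 and -1.23 with standard errors of 0.78 and 0.70. MX1 held 268, 202, 677 and 389 CPM in controls and 321, 217, 168 and 24.5 CPM in the DDR1 group (log2 fold change -1.07, standard error 0.64). MX2 ran from 13.2 CPM in DDR1 replicate 4 to 244 CPM in control replicate 3. SAMD9L, a growth-restraining antiviral protein, held 77.1, 61.1, 93 and 94.8 CPM in controls and 29.8, 58.1, 83.1 and 4.75 CPM in the DDR1 group, and its neighbour SAMD9 ran only from 76 to 235 CPM. XAF1, which promotes cell death, held 146, 115, 262 and 149 CPM in controls and 149, 102, 90.7 and 21.9 CPM in the DDR1 group. EIF2AK2, the kinase that halts translation on double-stranded RNA, ran from 125 to 594 CPM, and both genes were lowest in DDR1 replicate 4 and highest in control replicate 3. BST2, which tethers budding virions, ranged 2.43-fold, and ISG20, an RNA exonuclease, 2.25-fold with its lowest value in the library labelled DDR1 replicate 1. All 12 effectors had a log2 fold change below 0, with a median of -0.73 and 0 at an unadjusted p under 0.05.

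The 3 cytosolic sensors of viral RNA had their highest and lowest values in the same libraries. DDX58 (RIG-I; chromosome 9, 32455705 to 32526324, minus strand) held 169, 163, 341 and 215 CPM in controls and 140, 141, 204 and 34.6 CPM in the DDR1 group. IFIH1 (MDA5) held 47.5, 47.3, 101 and 51.3 CPM and then 47.9, 43.8, 42.3 and 9.35 CPM. DHX58, which tunes both, held 31.5, 18.5, 41.5 and 28 CPM and then 27.6, 21.2, 18.1 and 11.5 CPM. Each was highest in control replicate 3 and lowest in DDR1 replicate 4, the order of the libraries between them differed, and the groups overlapped for all 3. Their log2 fold changes were -0.77, -0.79 and -0.61 with standard errors of 0.46, 0.46 and 0.31, and without DDR1 replicate 4 they were -0.44, -0.45 and -0.41.

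The 4 transcription factors differed in spread, with an SD of log2 CPM over 8 libraries of 0.73 for IRF7, 0.53 for STAT2, 0.35 for IRF9 and 0.19 for IRF1. STAT2 held 118, 103, 194 and 185 CPM in controls and 84.2, 117, 167 and 71.3 CPM in the DDR1 group, with a log2 fold change of -0.45 and a standard error of 0.31. IRF9, its DNA-binding partner, held 81.4, 56.3, 73.1 and 82.6 CPM in controls and 110, 64.5, 67.2 and 50.9 CPM in the DDR1 group, with a log2 fold change of 0.00. IRF1, the main factor of the interferon gamma response, stayed between 38.1 and 58.7 CPM in all 8 libraries and stood at 49.4 CPM in DDR1 replicate 4. IRF7, which drives interferon genes and is itself interferon-induced, held 52.8, 24.1, 80.9 and 90 CPM in controls and 46, 32.1, 24.9 and 32.5 CPM in the DDR1 group. IRF7 had a log2 fold change of -0.87, standard error 0.37 (edgeR unadjusted p = 0.0426, adjusted p = 0.9998), control replicate 2 lay lowest, and the value was -0.83 without DDR1 replicate 4 but -0.18 with both no-lane controls left out. DDR1 replicate 4 was the lowest of 8 libraries for STAT2 and IRF9. Set against the other 3 DDR1 libraries, it lay below them for STAT2 and IRF9, inside their range for IRF7 and above them for IRF1.

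ISG15 is a ubiquitin-like protein that is joined to other proteins by UBA7 and HERC5 and removed by USP18, which also shuts off receptor signalling. ISG15 held 130, 30.8, 267 and 129 CPM in controls and 187, 56.3, 38.2 and 31.5 CPM in the DDR1 group. The lowest library was control replicate 2, and DDR1 replicate 4 was close to it, so ISG15 did not mark DDR1 replicate 4 as the IFIT genes did. Without the library labelled DDR1 replicate 1 the log2 fold change of ISG15 moved from -0.83 to -1.73. HERC5 (chromosome 4, 88457117 to 88506163, plus strand) had the largest log2 fold change among the 53 genes, -1.44 with a standard error of 0.44 (edgeR unadjusted p = 0.00934, adjusted p = 0.9998). It held 29.5, 23, 71.2 and 30.1 CPM in controls and 17.3, 15.8, 17.9 and 5.45 CPM in the DDR1 group, with no overlap. The value was -1.16 without DDR1 replicate 4, -0.96 without control replicate 3 and -0.89 with both no-lane controls left out. USP18 held 26.3, 17.1, 63.9 and 38.5 CPM and then 33.4, 13.3, 16.7 and 5.05 CPM, with overlap and a log2 fold change of -1.09 (standard error 0.55). HERC6, next to HERC5, ran from 15.2 to 97.5 CPM. UBA7 ranged 2.16-fold, and its lowest value lay in the library labelled DDR1 replicate 1.

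PARP9 and DTX3L form a complex that adds ADP-ribose and ubiquitin, and PARP14 is a related enzyme, all 3 on chromosome 3. PARP9 held 155, 141, 174 and 163 CPM in controls and 125, 122, 121 and 36.7 CPM in the DDR1 group. DTX3L held 167, 179, 203 and 210 CPM and then 129, 156, 154 and 81.2 CPM. In both genes the 4 DDR1 libraries lay below the 4 controls and the controls were close together, so the groups stayed apart when DDR1 replicate 4 was set aside. The log2 fold changes were -0.65 (standard error 0.34) and -0.55 (standard error 0.22, edgeR unadjusted p = 0.0304, adjusted p = 0.9998), and -0.36 and -0.37 without DDR1 replicate 4. PARP9 and DTX3L run apart from a shared start region with overlapping gene models (122527924 to 122564577, minus strand, and 122564238 to 122575203, plus strand), so they are not 2 independent results. PARP14 held 757, 617, 657 and 825 CPM in controls and 661, 598, 641 and 236 CPM in the DDR1 group.

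**Figure D4:**
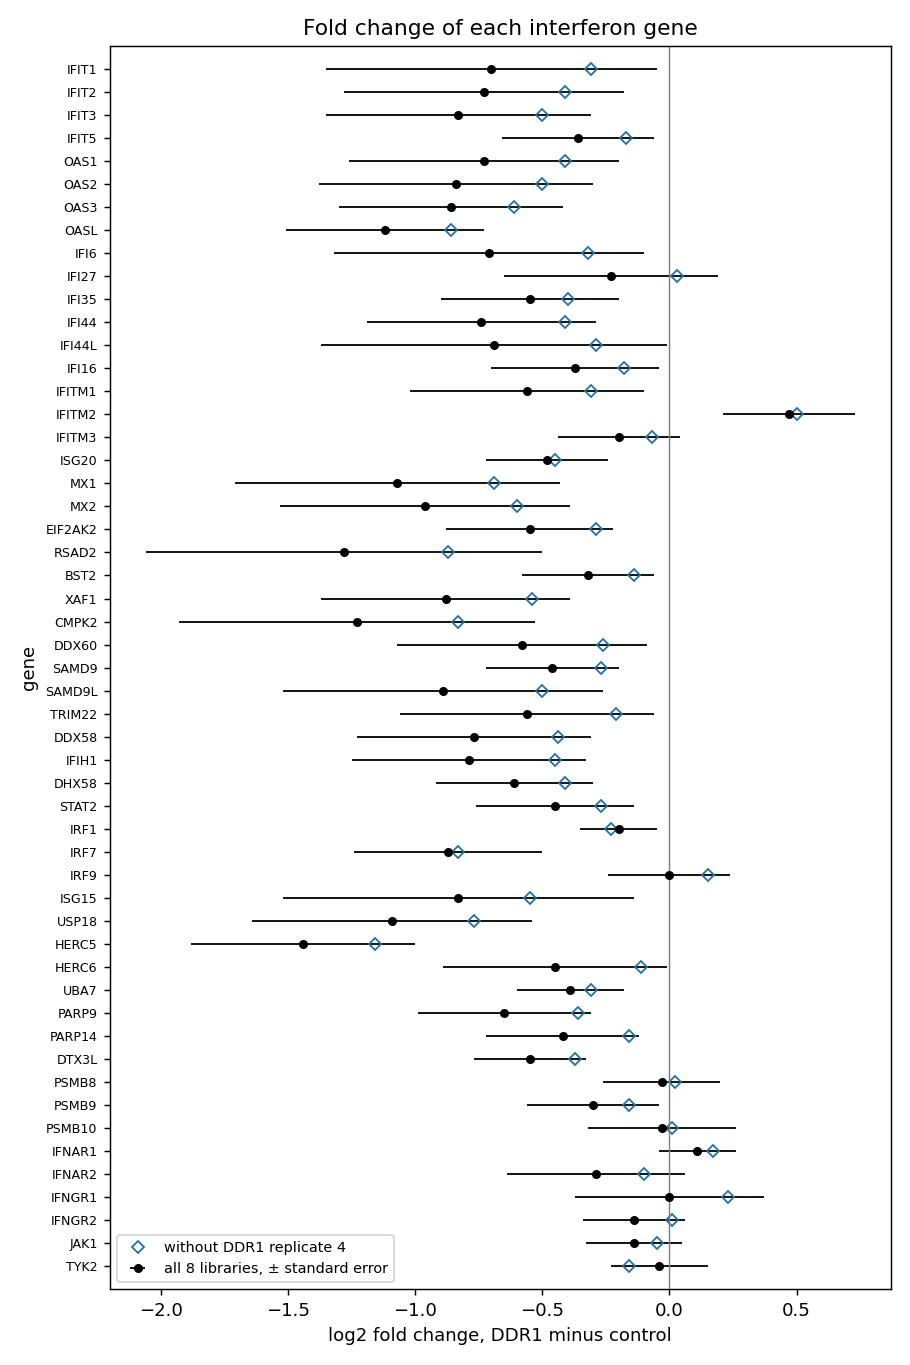
Log2 fold change (DDR1 minus control) of each of the 53 genes over all 8 libraries, as black points with bars of 1 standard error, and without DDR1 replicate 4 as open diamonds. HERC5 lies lowest at -1.44 with all libraries, IFITM2 highest at 0.47, and 45 of 53 diamonds lie below 0.

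The immunoproteasome subunits replace the standard catalytic subunits in cells under interferon gamma. PSMB8 held 47, 34.3, 48.1 and 39.5 CPM in controls and 61, 37.5, 29.1 and 37.8 CPM in the DDR1 group. PSMB9 ran from 17 to 37.4 CPM and PSMB10 from 13.9 to 36.2 CPM, and all 3 were highest in the library labelled DDR1 replicate 1. The log2 fold changes were -0.03, -0.30 and -0.03 with standard errors of 0.23, 0.26 and 0.29. DDR1 replicate 4 differed from the mean of the other DDR1 libraries by -0.10, -0.54 and 0.00 on the log2 scale, against -3.33 for IFIT1. PSMB8 and PSMB9 have overlapping gene models, and PSMB9 also overlaps TAP1.

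The receptor chains and kinases sit upstream of the targets and are on in most cells. Their median SD of log2 CPM over the 8 libraries was 0.27, against 0.72 for all 53 genes and 0.39 for all tested genes. IFNAR1 held 61.4, 53.8, 59.4 and 55.3 CPM in controls and 53.6, 68.3, 70.3 and 55.4 CPM in the DDR1 group. IFNAR2, the other chain of that receptor, ran from 12 CPM in DDR1 replicate 4 to 33.4 CPM in DDR1 replicate 3. JAK1 ran from 177 CPM in control replicate 3 to 275 CPM in control replicate 1, and TYK2 from 47.1 CPM in control replicate 2 to 79.1 CPM in DDR1 replicate 4. IFNGR1, a chain of the interferon gamma receptor, ran from 25.2 CPM in DDR1 replicate 4 to 90.2 CPM in DDR1 replicate 3, and IFNGR2 from 48.5 to 87.1 CPM in the same libraries. The 6 log2 fold changes lay between -0.29 and 0.11.

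Levels of different genes can be set side by side only per length. Per kilobase of merged exons, the mean over 8 libraries was 380 CPM for IFI6, 297 for IFITM3, 201 for IFITM1, 116 for ISG15 and 99.9 for BST2, the 5 highest of the 53. It was 52.7 for IFIT3 and 50.1 for IFIT1, and 2.32 for ISG20, the lowest. Merged exons can exceed the length of the transcripts in use, so these values are a rough scale.

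Genes with and without an ISRE core in the printed window were both low in DDR1 replicate 4. Against the mean of the other DDR1 libraries, the median log2 difference in DDR1 replicate 4 was -1.36 for the 22 genes with a core and -0.72 for the 20 without. The genes without a core included the receptors and kinases IFNAR1, IFNGR1, IFNGR2, JAK1 and TYK2, at -0.20, -1.18, -0.66, -0.38 and 0.49. None of the 22 genes with a core belonged to that subgroup. The 2 sets thus differed in make-up, and the part of the core in these values was not tested. DDR1 replicate 4 was the lowest library for 19 of the 22 and for 14 of the 20. RSAD2 and CMPK2, at -4.39 and -3.37, had no core in the window, while ISG20 and PSMB10, at -0.01 and 0.00, had one. In the comparison of the groups, the median log2 fold change was -0.57 for genes with a core and -0.41 for those without.

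Of 21 interferon genes listed as ligands, 2 passed the filter. IFNE, an epithelial type I interferon (chromosome 9), was the one at the highest level. Its gene model overlaps MIR31HG on the same strand, so its counts are less certain. IFNE held 35.8, 15.1, 10.4 and 41.5 CPM in controls and 6.78, 24.6, 31.5 and 3.7 CPM in the DDR1 group. It was low in control replicate 3, where the IFIT and OAS genes were highest, and lowest in DDR1 replicate 4. IFNA1 held 2.33, 0.543, 0.301 and 5.18 CPM in controls and 0.23, 1.08, 1.46 and 0.05 CPM in the DDR1 group, and close copies in its family make its counts uncertain. Under the filter, and named here after their values were seen, IFNB1 had 7 counts over all 8 libraries, IFNG 1 and IFNL1 62. The log2 fold changes of IFNE and IFNA1 were -0.62 and -1.52, and neither passed (edgeR unadjusted p = 0.376 and 0.161).

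Among 13 adaptors and kinases of nucleic acid sensing, 12 had a log2 fold change below 0 (against 50.5% of all tested genes), with a median of -0.23. Of all tested genes 2.24% were lower at an unadjusted p under 0.05 with edgeR, and of these 13 genes 3 were. These were IKBKE, a kinase of interferon regulatory factors, at -0.82 (17.2 ± 3.73 CPM in controls, 9.74 ± 3.53 in the DDR1 group; SD, n = 4), the RNA receptor TLR3 at -1.09 and TRIM25, an activator of DDX58, at -0.43. ZBP1, a sensor of Z-form nucleic acid and itself interferon-induced, held 5.21, 4.26, 20.7 and 15.2 CPM in controls and 3.79, 4.05, 6.92 and 0.25 CPM in the DDR1 group. Of 10 further receptor and signalling genes 9 were tested, and IRF2 (-0.50) was the 1 lower at an unadjusted p under 0.05. SOCS1, a feedback inhibitor, had -0.86 at mean levels of 0.888 and 0.481 CPM, and IL10RB and IFNLR1, the chains of the interferon lambda receptor, had -0.22 and 0.30. With edgeR none of these passed over all genes (adjusted p = 0.9998 for each of the genes named).

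A further 48 interferon targets that are not among the 53 were also listed. Of 47 tested, 40 had a log2 fold change below 0 (against 50.5% of all tested genes), with a median of -0.48. With edgeR, 8 were lower at an unadjusted p under 0.05 and 0 higher, where 2.24% of all tested genes were lower and 1.93% higher. None of the 47 passed over all genes. DDR1 replicate 4 was the lowest library for 31 of 47 (66%, against 17% of all tested genes). Control replicate 3 was the highest for 21 of 47 (44.7%, against 19%). The 4 with the smallest p-values were BATF2, a transcription factor (-1.41; 6.39 ± 3.11 CPM in controls, 2.39 ± 1.08 in the DDR1 group), the RNA helicase MOV10 (-0.55), HELZ2, a nuclear receptor coactivator (-1.12), and TDRD7 (-0.68). The chemokines CXCL10 and CXCL11, chosen after their values were seen, had another order of libraries. CXCL10 held 26.1, 18.3, 6.46 and 96.2 CPM in controls and 0.23, 22.1, 52 and 0.1 CPM in the DDR1 group. CXCL11 held 5.87, 5.72, 1.72 and 45.9 CPM and then 0.144, 7.24, 24.5 and 0.15 CPM. Both were near 0 in the library labelled DDR1 replicate 1 as well as in DDR1 replicate 4, and low in control replicate 3.

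Several other measures also differed among the libraries. DDR1 replicate 4 had the highest summed level of 13 handling stress genes (1520 CPM, where the other 7 libraries held 691 to 1190). Control replicate 3 came next by this sum, at 1190 CPM, of which HSPA1A held 536 CPM. By mean log2 CPM over the 13 genes DDR1 replicate 4 was again highest, at 6.32. Control replicate 3 stood at 5.25 on that scale, below control replicate 1 at 5.58. It lay above the mean of the other controls for 6 of the 13 genes. DDR1 replicate 4 was also highest for 14 ribosomal protein genes (11000 CPM) and for 6 endothelial markers (76.1 CPM, against 8.65 to 55.9 in the other 7). Of these markers PECAM1 and CDH5 stood at 21.8 and 51.1 CPM there, and KDR, TEK and EMCN lay under the filter. The ribosomal protein sum also separated the groups, at 6000 to 7080 CPM in controls and 7880 to 11000 CPM in the DDR1 group. All 14 of these genes had a log2 fold change above 0, 8 of them at an unadjusted p under 0.05 with edgeR and 6 without overlap. Over all tested genes 49.5% lay above 0, 1.93% were higher at that p and 1.27% were higher without overlap. The 13 mitochondrially encoded genes summed to 9740 to 21200 CPM in controls and 14600 to 19600 CPM in the DDR1 group, with 12 of 13 above 0 and 0 at an unadjusted p under 0.05. Leukocyte markers were also highest in DDR1 replicate 4, at 49.3 CPM, with CD68 at 46.3 CPM and PTPRC at 0. Markers of plasmacytoid dendritic cells, the blood cells that secrete most type I interferon, were at or near 0 for CLEC4C (3 counts over all libraries), LILRA4 (1) and GZMB (0). Of these 6 markers, 4 lay under the filter, and TCF4, which other cells also express, held most of the summed 5.6 to 18.7 CPM in controls and 3.45 to 12.1 CPM in the DDR1 group. Fibroblast markers summed to 9.04 to 46.1 CPM in controls and 3.91 to 40.6 CPM in the DDR1 group, with 9.04 in control replicate 3 and 11.3 in DDR1 replicate 4. Reads of mouse cells that align to human genes could add to any of these values, fewer cells of a type and less RNA per cell cannot be told apart, and the part of these measures in the interferon gene levels was not tested.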

How the data were processed

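RNA sequencing covered 8 libraries, 4 control and 4 DDR1, grouped by their condition label; replicate numbers follow accession order. Per the labels' protocols, poly-A RNA was captured on magnetic beads and sequenced as read pairs; strand marking is not mentioned. The submitters' processing notes name FastQC (0.11.9), Trim Galore (0.6.4), STAR (2.7.5), RSEM (1.3.1) and GRCh38. For settings, annotation and any removal of mouse reads, no source used here says more. The authors deposited expected counts per gene (26.5% of values above 0 not whole) and TMM-normalized log2 values. The log2 table of 22480 genes served only for limma-trend. Library totals were 13716286 to 32271031.

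Expected counts were rounded. Identifiers were matched to GENCODE release 29 (58039 of 58302). Genes were kept by filterByExpr (minimum count 10), scaled by TMM and tested with edgeR's quasi-likelihood test on the 8 libraries without covariates, with Benjamini-Hochberg adjustment across 18973 genes (edgeR 4.0.16, limma 3.58.1, DESeq2 1.42.0, R 4.3.3). The procedure was tested on simulated data with absolute log2 changes of 2 and 3, of which it called 82% and 98%, with 11 false calls. Changes as small as those of the 53 genes were not simulated. Levels are TMM-scaled CPM; log2 CPM used a prior count of 2. Every pair of libraries differed by more than counting error (chi-square over its degrees of freedom at least 30.7). The genes, lists and alternatives were chosen with earlier results of these data known. Full values were given for up to 4 genes per subgroup with the smallest p and the most abundant, and fold changes for up to 4 genes per wider list; IFI6, IFI44L, MX1, RSAD2 and SAMD9L were given in full after their values were seen. Gene models of 23 of the 53 overlap a tested gene, for 7 on their own strand. Promoter sequences are from RefSeq. Alternatives were other scaling, DESeq2, limma-voom, limma-trend, other filters, leaving out libraries, and summing libraries of a shared title prefix. The deposited values were already log2, so no 1 was added.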

Additional observations from a re-analysis of the deposited data

Results flagged for a closer look

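In 53 genes and 2 groups each, 106 groups of 4 libraries were checked for a library far from the other 3 on the log2 scale (Dixon's criterion, which chance meets in about 5% of groups), and 19 (17.9%) met it, 16 of them for DDR1 replicate 4 and 2 for control replicate 3. Over all 18973 tested genes, 5.63% of groups met it. DDR1 replicate 4 was far below for 30.2% of the 53 genes and 1.23% of all tested genes, and control replicate 3 far above for 3.77% and 1.29%. The genes share libraries and are not independent. DDR1 replicate 4 was far below the other DDR1 libraries for IFIT1 (22.3 CPM), IFIT3 (29.7 CPM) and IFIT5 (35.2 CPM). The same held for IFI6 (25 CPM), IFI44 (25.7 CPM), IFI44L (20.6 CPM), MX2 (13.2 CPM) and EIF2AK2 (125 CPM). It also held for RSAD2 (1.6 CPM), BST2 (63.6 CPM), CMPK2 (2.5 CPM), TRIM22 (22.4 CPM) and IFIH1 (9.35 CPM), and for HERC5 (5.45 CPM), PARP9 (36.7 CPM) and PARP14 (236 CPM). Control replicate 3 was far above the other controls for OAS1 (187 CPM) and IFIH1 (101 CPM). Control replicate 2 was far below the others for ISG20 (13.4 CPM).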

How the results depend on the processing

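None of the 53 genes passed at an adjusted p under 0.05 under any of the 17 alternatives, and the count over all genes was 0 except with DESeq2, which called 15. With 1 library left out, both counts stayed at 0, the log2 fold change of DDR1 ran from 1.05 to 1.79, and the median of the 53 genes ran from -0.76 to -0.31. That median stayed below 0 under every alternative run, and was -0.39 after summing the libraries that share a title prefix. DDR1 itself no longer passed its unadjusted threshold without the controls of lane 7 (1.31). Of 748 log2 fold changes, for 44 genes, 33 in 11 genes changed sign. IRF9 stood at 0.00 with DESeq2 and with RLE scaling and at 0.03 with no filter. Without the controls that have no lane, IFIT1 was 0.07, IFIT2 0.17, IFIT5 0.08, IFITM1 0.26, IFITM3 0.08, IRF9 0.09 and PSMB8 0.03. Without those of lane 7, JAK1 was 0.02. With title prefixes summed, IFITM1 was 0.02, IFITM3 0.02, IRF9 0.28, PSMB8 0.20, PSMB9 0.01 and PSMB10 0.26. With 1 library left out, IRF9 ran from -0.27 to 0.15, PSMB8 from -0.28 to 0.11, PSMB10 from -0.38 to 0.14, IFITM3 from -0.31 to 0.01 and IFNGR2 from -0.26 to 0.01. The cause was not tested. No paired analysis was possible because the titles carry an M number whose meaning is not given, and only 1 such number occurs in both groups.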
